A study of Mus musculus with 4 samples.

Results

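T-effector samples of mouse CD4 T cells cultured with TGFb and IL6 together were compared with T-effector samples cultured with IL2 and neither of these cytokines. The samples were taken by their labelled cell type, dye and condition, and no measured value entered the choice. They are 7 of the 26 RNA samples of the series, 4 with TGFb and IL6 and 3 with IL2. Each shares its 2-colour array with a Treg sample of the same condition. The TGFb with IL6 cultures received TGFb at 4 ng/ml and IL6 at 25 ng/ml beside IL2 at 100 units/ml for 3 days, and the IL2 cultures received the same IL2 and nothing else. The series also holds 3 arrays with TGFb added to IL2 and 3 with IL6 added to IL2, which are used below to set the joint condition against each cytokine given singly. All groups were CD4+ lymph node cells kept for 4 days with plate-bound anti-CD3 at 1 ug/ml, an antibody that engages the T cell receptor, so activation and IL2 are common to both sides of every difference. The labels give neither the strain, age nor sex of the mice, nor how Treg and T-effector cells were separated, nor whether repeats of a condition were separate cultures or mice, so the p-values measure the spread between arrays, which may be technical.

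TGFb and IL6 given together are the classical signal that turns an activated CD4 T cell into a Th17 cell, a helper cell that makes IL17 at mucosal surfaces. IL6 acts through its receptor chain gp130 (Il6st) and the factor STAT3, TGFb through its receptor kinases and Smad proteins. TGFb without IL6 favours Foxp3, the factor of regulatory T cells, and IL2 with STAT5 restrains Th17 cells. Ahr is a receptor for small aromatic ligands that Th17 cells carry in quantity. Once bound by a ligand it pairs with Arnt, moves to DNA and switches on detoxifying enzymes such as Cyp1a1 and its own repressors.

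Ahr with Arnt binds DNA at a short core, GCGTG. The 6 genes of the Ahr list with a RefSeq promoter entry were searched for it over the 250 bases before the gene's start, on both strands, and 5 of them hold it (Arnt, Ahrr, Cyp1a1, Cyp1b1 and Tiparp). Of all 32851 promoter windows of that length 28.2% hold it, so a match is a description and not a site. The 4 windows below are those of Ahr-responsive genes whose T-effector signal rose with TGFb and IL6, and the capitals mark the core on either strand (GCGTG or CACGC). The 5th is that of Socs3, the feedback inhibitor of IL6 signalling, with the STAT palindrome TTCNNNGAA in capitals, which 7.02% of all windows hold. Of 10 IL6 and STAT3 induced genes with an entry, 2 hold that palindrome (Socs3 and Bcl6). The letters are RefSeq's on build GRCm38.p6, written 5′ to 3′ on the strand of the gene, at chr9:57697363-57697612 (Cyp1a1, plus strand), chr17:79715062-79715311 (Cyp1b1, minus), chr3:65528197-65528446 (Tiparp, plus), chr13:74292332-74292581 (Ahrr, minus) and chr11:117969367-117969616 (Socs3, minus).
Cyp1a1: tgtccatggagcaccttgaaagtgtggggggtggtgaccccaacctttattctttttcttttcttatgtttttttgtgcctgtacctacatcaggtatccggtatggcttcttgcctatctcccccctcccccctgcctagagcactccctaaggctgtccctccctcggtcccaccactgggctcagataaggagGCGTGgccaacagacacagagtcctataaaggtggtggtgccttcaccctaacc
Cyp1b1: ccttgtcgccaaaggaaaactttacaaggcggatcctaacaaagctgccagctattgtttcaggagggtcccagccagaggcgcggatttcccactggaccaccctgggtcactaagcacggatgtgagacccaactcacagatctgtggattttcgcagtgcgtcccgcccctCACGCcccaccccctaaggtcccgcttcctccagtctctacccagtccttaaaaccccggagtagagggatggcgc
Tiparp: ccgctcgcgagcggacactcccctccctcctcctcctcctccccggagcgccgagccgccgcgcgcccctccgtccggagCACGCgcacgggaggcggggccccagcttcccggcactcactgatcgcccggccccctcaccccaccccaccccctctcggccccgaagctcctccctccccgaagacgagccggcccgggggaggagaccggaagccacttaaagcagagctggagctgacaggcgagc
Ahrr: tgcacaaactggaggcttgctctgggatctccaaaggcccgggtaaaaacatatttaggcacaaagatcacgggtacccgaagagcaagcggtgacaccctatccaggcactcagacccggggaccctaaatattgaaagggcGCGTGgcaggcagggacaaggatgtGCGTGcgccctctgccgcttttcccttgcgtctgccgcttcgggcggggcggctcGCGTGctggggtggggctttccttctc
Socs3: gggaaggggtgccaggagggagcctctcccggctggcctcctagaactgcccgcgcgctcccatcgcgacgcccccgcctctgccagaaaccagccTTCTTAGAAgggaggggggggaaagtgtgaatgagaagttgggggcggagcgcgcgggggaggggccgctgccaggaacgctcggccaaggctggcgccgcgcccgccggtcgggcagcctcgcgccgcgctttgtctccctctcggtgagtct

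Values are log2 signals of the T-effector dye, and a difference is TGFb with IL6 minus IL2 from limma's fit over all 13 arrays, with its standard error after the ± sign and a p-value adjusted over all 19906 genes. The arrays lie on 5 slides, called A to E here. TGFb with IL6 arrays 1 to 4 lie on slides E, B, D and B and IL2 arrays 1 to 3 on slides A, D and C, so the conditions met on slide D only, with 1 array each and the same dye. The difference between those 2 arrays is given as the slide D difference. It is a part of the fit and no independent check, and it ran the same way as the fitted one for 1828 of 1828 genes that rose and 1957 of 1957 that fell. Slide and condition are otherwise hard to tell apart. Array 4 of TGFb with IL6 had a median negative control signal of 118 in the T-effector dye, against 1.11 to 18.8 on the other 12 arrays. Between 41.7% and 67% of probes were well above background in the 4 TGFb with IL6 samples and between 55.5% and 65.8% in the 3 IL2 samples. The correlation across genes was 0.97 to 0.994 among the TGFb with IL6 samples, 0.984 to 0.994 among the IL2 samples and 0.941 to 0.968 between the conditions. T cell genes were detected in both conditions: of 12 genes of CD4 T cell identity, such as Cd3e, Lck and Cd28, 11 were well above background on every TGFb with IL6 array and 12 on every IL2 array, with 0 higher and 0 lower (0 and 9 with each channel centred on its median). The exception was Cd4, well above background on 3 of 4 TGFb with IL6 arrays and 3 of 3 IL2 arrays, while both chains of CD8, Cd8a and Cd8b1, were so on all 7. Mean signals with TGFb and IL6 and with IL2 were 6.95 and 7.11 for Cd4, dim in both. They were 9.36 and 9.23 for Cd8a and 10.35 and 11.06 for Cd8b1. Whether probe brightness tracks amounts across genes was not tested.

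The joint condition changed 3785 of 19906 genes (19% of those tested), of which 1828 were higher (9.18%) and 1957 lower (9.83%) than with IL2. The signals of the 4 and the 3 arrays did not overlap for 5763 genes (29%), 2557 higher (12.8%) and 3206 lower (16.1%). The split of calls depends on the scaling: with each channel centred on its median, 846 were higher and 6143 lower, and the median difference over all genes was -0.25. That scaling gave a lower median for 32 of the 33 gene lists used below and the opposite sign for 10, so the numbers of higher and lower members under it stand in brackets beside the main ones. Each main list count below is to be read beside the shares over all genes, 9.18% higher and 9.83% lower. Without IL2 array 1 the count was 2247 and without IL2 array 3 2471. The 8 genes that rose most were Aqp3, Rgcc, Sgk1, Il21, Serpinb5, Il17f, Nt5e and S1pr1, in that order of difference, and the 8 that fell most Edn1, Penk, Cavin3, Nrn1, Slco4a1, Cd83, an unnamed transcript listed as AF152371, and Hdc.

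Aqp3, a channel for water and glycerol, gave 12.98, 12.56, 12.82 and 12.74 with TGFb and IL6 and 6.78, 6.76 and 7.002 with IL2. Every array of the joint condition lay over 5 log2 units above every IL2 array, a difference of 5.92 ± 0.15 (adjusted p = 3.84e-09). Rgcc, a regulator of the cell cycle, read 13.04, 12.67, 12.79 and 12.92 with TGFb and IL6, against 8.35, 8.12 and 8.54 with IL2 (4.51 ± 0.13, adjusted p = 4.11e-09). Sgk1, a kinase regulated by salt and serum that supports Th17 cells in mice, read 11.06, 12.16, 11.80 and 12.16 with TGFb and IL6, against 7.39, 7.17 and 7.59 with IL2 (4.44 ± 0.31, adjusted p = 1.58e-06), with array 1 the lowest of the joint condition. Serpinb5, a member of the serpin family, was not well above background on any IL2 array and was at least 19.6-fold higher with TGFb and IL6 (adjusted p = 4.74e-08). Such a bound sets the mean of the bright group against, on each dim array, the higher of the gene's own signal and the lowest signal of any probe well above background. It uses means without the dye term of the fit, to which the p-values belong. At the other end Edn1, the precursor of the peptide endothelin 1, and Cavin3, a protein of caveolae, were not well above background on any TGFb with IL6 array and were at least 13.1-fold and 12.7-fold lower there (adjusted p = 5.33e-07 and 9.12e-09). The transcript listed as AF152371 was at least 9.93-fold lower, by the same reading (adjusted p = 8.19e-08). In the main fit the log2 differences were 4.29 (Serpinb5), -3.79 (Edn1), -3.65 (Cavin3) and -3.29 (AF152371). Those of Cavin3 and AF152371 were slightly smaller than their bounds. With background parameters from all spots the fitted log2 differences were 3.56, -3.06, -2.93 and -2.67 in that order, all smaller than their bounds. The bounds thus describe unadjusted means under the main processing only. Penk, which encodes the precursor of enkephalin, read 7.13, 7.67, 7.10 and 7.81 with TGFb and IL6 and 11.25, 10.84 and 11.26 with IL2, and the groups lay over 3 units apart (-3.69 ± 0.21, adjusted p = 3.15e-07). The other 4 fell by 3.28 to 3.41 on the log2 scale: Hdc, the enzyme that makes histamine, Cd83, a surface marker of activated lymphocytes and dendritic cells, the organic anion transporter Slco4a1 and Nrn1, a small anchored protein first known from neurons.

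Of 10 Th17 cytokines and receptors measured, 5 rose and 2 fell (median 0.70, against 0.01 over all genes; 5 and 2 with median centring). Il17f, a Th17 cytokine that acts on epithelia and neutrophil recruitment, read 10.54, 10.19, 10.37 and 10.45 with TGFb and IL6 and 6.37, 6.39 and 6.37 with IL2. The joint condition was high on all 4 arrays, on each of its slides, and IL2 was low on all 3 (4.003 ± 0.12, adjusted p = 5.44e-09; slide D difference 3.97). Il17a, the signature cytokine of Th17 cells, read 8.55, 7.89, 8.01 and 7.55 with TGFb and IL6, against 6.90, 6.70 and 6.81 with IL2, a smaller difference of 1.16 ± 0.20 that also kept the groups apart (adjusted p = 0.00189). Il21, which Th17 and follicular helper cells use to sustain themselves and to help B cells, read 12.84, 12.15, 12.36 and 12.30 with TGFb and IL6 and 8.10, 7.92 and 8.15 with IL2. Every joint array lay over 3 units above every IL2 array (4.32 ± 0.20, adjusted p = 6.16e-08). Ccl20, the chemokine ligand of the Th17 receptor CCR6, varied more within the joint condition, at 11.04, 10.03, 10.63 and 9.65 with the slide B arrays lowest, and was 6.61, 6.78 and 7.07 with IL2 (3.51 ± 0.32, adjusted p = 1.74e-05).

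Not all of the Th17 cytokine genes followed. Csf2, which encodes GM-CSF, a cytokine of Th17 cells that drive inflammation, read 6.35, 6.58, 6.30 and 6.53 with TGFb and IL6 and 8.93, 8.68 and 8.65 with IL2 and thus fell on every array (-2.33 ± 0.11, adjusted p = 5.88e-08). Il22, a cytokine of barrier defence, was slightly lower (-0.62 ± 0.16, adjusted p = 0.0181), a call lost under 7 of 25 alternatives. These were the omission of IL2 array 1, IL2 array 3, TGFb with IL6 array 3 or slide E, and background parameters from all spots. The others were a fit of only the 2 conditions compared and the separate-channel fit (adjusted p = 0.368). Among receptors Il1r1, the receptor for the Th17 cofactor IL1, rose to 8.22, 8.17, 7.97 and 8.02 with TGFb and IL6, against 6.92, 6.41 and 6.67 with IL2 (1.39 ± 0.10, adjusted p = 3.23e-06). Ccr6 differed by 0.24 ± 0.10 (adjusted p = 0.137) and Il17re, a receptor subunit for IL17C, by 0.024 ± 0.18 (adjusted p = 0.947). Il23r, the receptor chain for the cytokine that maintains Th17 cells, was well above background on 2 TGFb with IL6 arrays and 0 IL2 arrays, and its signals overlapped (-0.054 ± 0.11, adjusted p = 0.785).

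**Figure D1:**
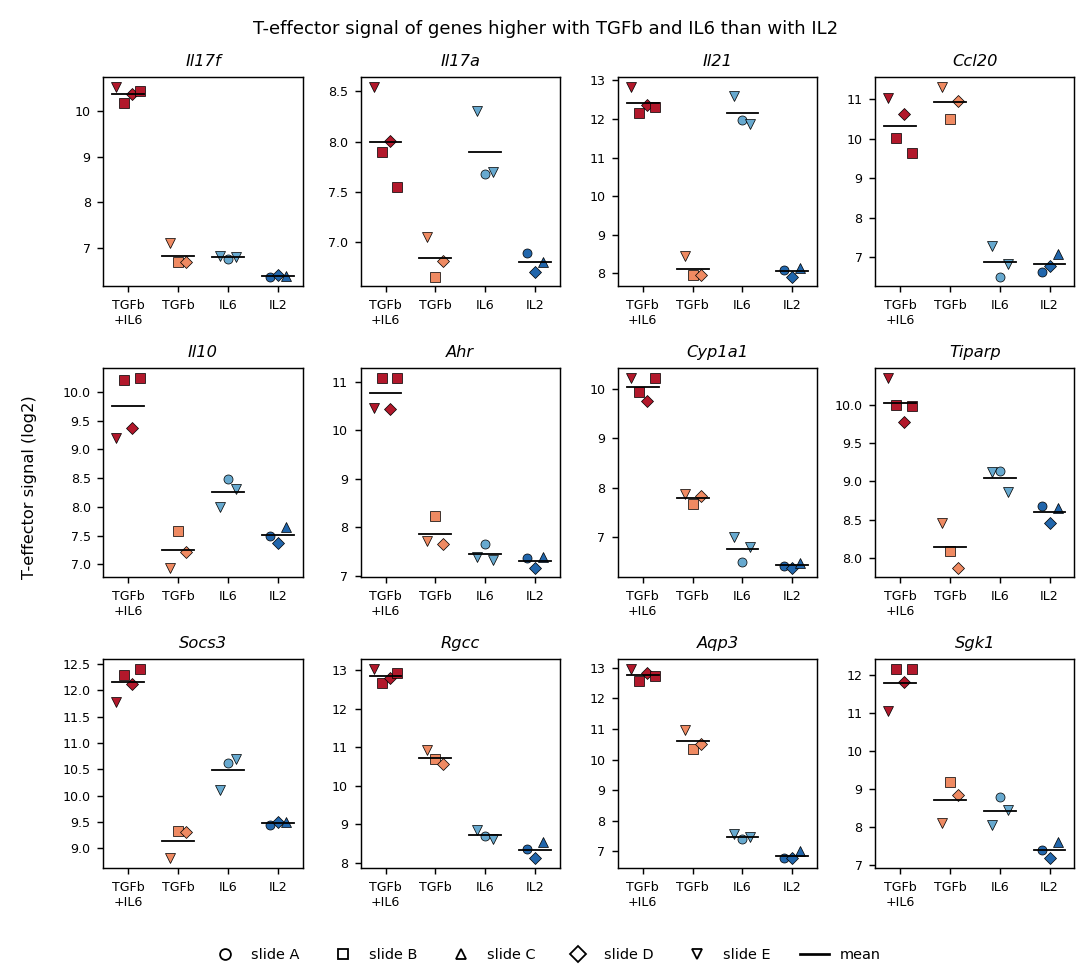
T-effector signal (log2, y axis) by condition for 12 genes that rose with TGFb and IL6, 1 point per array with the marker giving the slide and a bar at the mean. Il17f and Ahr are high with both cytokines together (Il17f 10.19 to 10.54), Il21 also with IL6 alone, and Ccl20 also with TGFb alone, while all 12 are lower with IL2.

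Of the 10 factors of the Th17 list 3 rose, among them Ahr and Stat3, and 0 fell (median 0.44; with median centring 2 and 2, median -0.25, 0.0031 relative to all genes). Stat3 rose by 0.52 ± 0.089 (adjusted p = 0.00172), and its difference was -0.34 with median centring. Rora, a nuclear receptor of Th17 cells, differed by 0.38 ± 0.15 (adjusted p = 0.0974). Other factors did not pass the test: Runx1, a factor of T cell development, Nfkbiz, an atypical IkB protein, Hif1a, the oxygen-regulated factor, and the pair Irf4 and Batf, which open Th17 gene loci, differed by 0.49, 0.22, 0.15, 0.059 and -0.32 (adjusted p = 0.566, 0.413, 0.729, 0.794 and 0.21). The Irf4 value rests on 3 TGFb with IL6 arrays, since its spot on array 4 was left out as an outlier. Irf4 was bright in both conditions, at 12.33 ± 0.11 with TGFb and IL6 (SD, n = 3) and 12.25 ± 0.12 with IL2 (SD, n = 3).

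The probes of Maf, a factor that drives Il10 and Il21, disagreed. The brightest, which stands for the gene here, read 12.78, 12.41, 13.16 and 12.15 with TGFb and IL6 and 11.42, 12.42 and 10.71 with IL2. Its IL2 arrays spread over 1.7 units, the groups overlapped and the difference of 1.17 ± 0.40 did not pass (adjusted p = 0.0673). The next brightest read 12.69, 13.07, 12.76 and 13.24 with TGFb and IL6 and 8.10, 7.60 and 8.07 with IL2, over 4 units apart on every pair of arrays (5.01 ± 0.21, adjusted p = 3.52e-08 over all 28923 probes). The other 2 also rose, by 1.81 ± 0.14 and 0.98 ± 0.15 (adjusted p = 4.26e-06 and 0.000931). Which part of the transcript each probe reads was not examined. The disagreement was found after the values were seen, and 6 of 45 further probes of 37 named genes had the opposite sign of the probe used, with 13 of the same sign and another call.

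Of 8 genes of the Ahr pathway 6 rose and 0 fell (median 1.35; 4 and 1 with median centring). Ahr itself read 10.47, 11.09, 10.44 and 11.08 with TGFb and IL6, against 7.37, 7.17 and 7.38 with IL2. The 2 slide B arrays were the highest and all 4 lay over 3 units above IL2 (3.44 ± 0.20, adjusted p = 3.71e-07). Cyp1a1, the enzyme that defines Ahr activity and whose promoter core stands above, read 10.21, 9.93, 9.75 and 10.23 with TGFb and IL6 and 6.42, 6.38 and 6.48 with IL2 (3.60 ± 0.15, adjusted p = 3.17e-08). Cyp1b1, a related enzyme, was not well above background on any IL2 array and was at least 6.82-fold higher with TGFb and IL6 by unadjusted means. The fitted log2 difference was 2.76 ± 0.14 (adjusted p = 1.2e-07), slightly below that bound. With background parameters from all spots it was 2.11, also below. Tiparp, which represses Ahr by ADP-ribosylation, read 10.35, 9.997, 9.78 and 9.98 with TGFb and IL6 and 8.68, 8.46 and 8.65 with IL2 (1.39 ± 0.12, adjusted p = 1.41e-05), a call lost with median centring (0.75). The repressor Ahrr read 7.85, 8.71, 8.26 and 8.52 with TGFb and IL6, against 7.07, 6.93 and 7.09 with IL2, and its promoter window holds the core at 3 places (1.31 ± 0.24, adjusted p = 0.00261). Arnt, the partner of Ahr on DNA, rose by 0.64 ± 0.15 (adjusted p = 0.0109), a call lost with slide as a fixed block and with median centring (0.060), and its 2 dimmer probes did not pass. Nqo1, an enzyme that Ahr and Nrf2 share, differed by 0.32 ± 0.13 (adjusted p = 0.114) and did not pass.

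The joint condition was next set against each cytokine given singly, which asks whether a signal differed from that with either one. Over TGFb alone 1697 genes differed (8.53% of those tested, 4.99% higher and 3.53% lower; 948 without TGFb array 3 and 1097 without slide B) and over IL6 alone 2523 (12.7%, 6.23% higher and 6.44% lower; 1280 without IL6 array 3 and 905 without slide E). Both differences share the joint arrays, and the IL6 and joint conditions met on slide E only. Il17f read 7.11, 6.70 and 6.68 with TGFb alone and 6.82, 6.75 and 6.80 with IL6 alone, each a little above its IL2 mean of 6.38. The joint condition exceeded TGFb alone and IL6 alone by 3.56 and 3.60 (adjusted p = 3.99e-08 and 1.77e-08). Ahr exceeded TGFb alone by 2.93 and IL6 alone by 3.35 (adjusted p = 3.11e-06 and 7e-07). Cyp1a1 exceeded its level with TGFb by 2.25 and with IL6 by 3.26 (adjusted p = 3.05e-06 and 1.25e-07), and Cyp1b1 by 2.71 and 2.73 (adjusted p = 4.62e-07 and 2.21e-07). The second Maf probe was higher than with either cytokine, by 2.66 over TGFb and 2.94 over IL6 (adjusted p = 1.45e-05 and 3.75e-06).

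Il21 had another pattern. It read 12.60, 11.97 and 11.88 with IL6 alone and 8.45, 7.95 and 7.95 with TGFb alone, so that the joint condition stood 4.33 above TGFb (adjusted p = 2.57e-07) and differed from IL6 by 0.30 (adjusted p = 0.402). Il17a likewise read 8.31, 7.68 and 7.70 with IL6 alone and differed from it by 0.15 (adjusted p = 0.727), against 1.20 over TGFb alone (adjusted p = 0.00302). Ccl20 went with TGFb: it read 11.33, 10.51 and 10.95 with TGFb alone and 7.28, 6.51 and 6.83 with IL6 alone, and the joint condition differed from TGFb by -0.58 (adjusted p = 0.369) and from IL6 by 3.48 (adjusted p = 2.56e-05). Il22 was brightest with IL6 alone, at 9.89, 10.21 and 9.76, and the joint condition lay -2.70 from it (adjusted p = 6.9e-07) and 0.95 from TGFb alone (adjusted p = 0.00279). A p above the threshold in these comparisons does not show that levels were equal. The plot of the joint condition against each other condition gives 15 genes side by side.

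**Figure D2:**
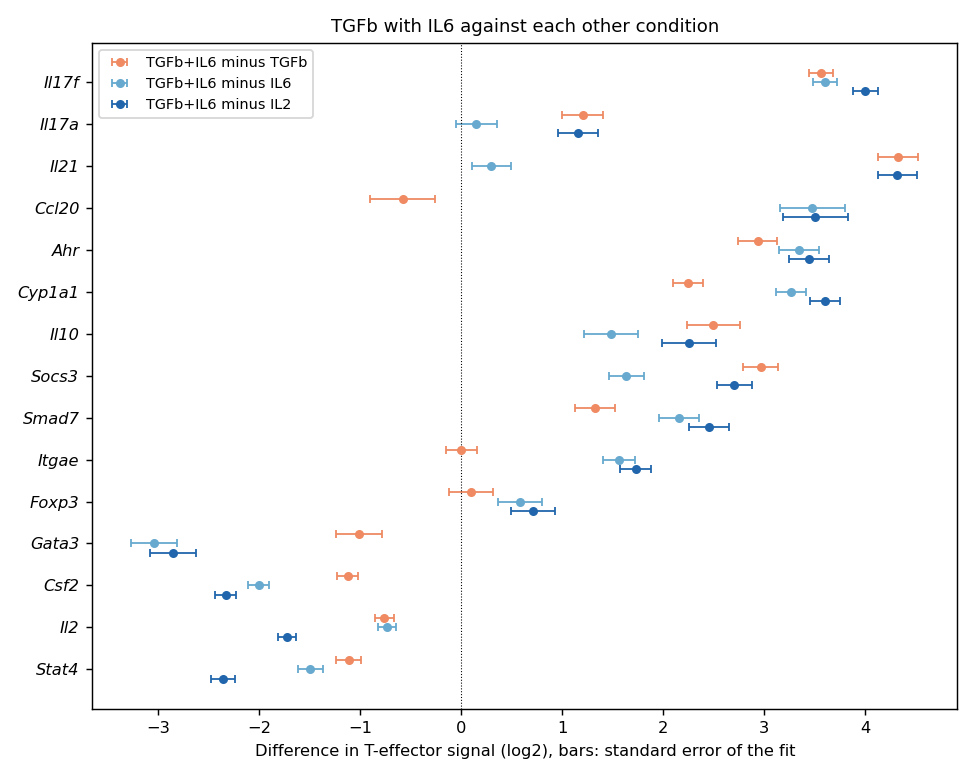
Difference in T-effector signal (log2, x axis) of TGFb with IL6 minus TGFb, minus IL6 and minus IL2 for 15 genes, with bars for the standard error of the fit. For Il17f all 3 differences lie between 3.56 and 4.00, for Il21 the one against IL6 is 0.30, and for Itgae the one against TGFb is 0.0011.

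Of 9 TGFb receptors and Smads 4 rose and 2 fell (1 and 2 with median centring). The receptor kinases Tgfbr1 and Tgfbr2 rose by 1.72 ± 0.17 and 0.96 ± 0.13 (adjusted p = 3.02e-05 and 0.000271), and Smad3, which carries the signal to DNA, by 0.59 ± 0.11 (adjusted p = 0.00356). The Tgfbr2 and Smad3 calls were lost with median centring (0.20 and 0.10). The dim second probes of Tgfbr1 and Tgfbr2 did not pass, and of 2 further Smad3 probes 1 rose and the dimmer one did not pass. Of 16 TGFb induced genes 9 rose and 3 fell (median 0.82; 7 and 3 with median centring). Nt5e, the ectoenzyme CD73 that makes adenosine, read 11.60, 10.84, 11.07 and 10.53 with TGFb and IL6 and 7.09, 6.94 and 7.05 with IL2 (3.93 ± 0.19, adjusted p = 1.02e-07). With TGFb alone it read 11.12, 10.75 and 10.76, and the joint condition differed from that by 0.18 (adjusted p = 0.692). The feedback inhibitor Smad7 read 9.22, 9.52, 9.01 and 9.80 with TGFb and IL6 and 6.89, 6.88 and 6.98 with IL2 (2.45 ± 0.20, adjusted p = 6.5e-06), and exceeded its level with TGFb alone by 1.33 (adjusted p = 0.00153). Ldlrad4, another inhibitor of Smad signalling, rose by 2.42 ± 0.18 (adjusted p = 3.51e-06) and Skil, a Smad corepressor, by 1.83 ± 0.088 (adjusted p = 9.62e-08).

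Of the 13 IL6 and STAT3 induced genes 9 rose and 0 fell (median 0.81; with median centring 3 and 2, median -0.018, 0.24 relative to all genes). Socs3, the inhibitor whose promoter stands above, read 11.78, 12.29, 12.12 and 12.41 with TGFb and IL6 and 9.45, 9.49 and 9.502 with IL2, and array 1 was the lowest of the joint condition (2.70 ± 0.17, adjusted p = 9.28e-07). With IL6 alone it read 10.11, 10.62 and 10.70, and the joint condition exceeded that by 1.63 (adjusted p = 7.52e-05). Il10, the cytokine that restrains inflammation, read 9.20, 10.20, 9.37 and 10.25 with TGFb and IL6 and 7.499, 7.37 and 7.65 with IL2 (2.25 ± 0.27, adjusted p = 0.000116), and exceeded both TGFb alone (2.50, adjusted p = 0.000121) and IL6 alone (1.48, adjusted p = 0.00331). Cebpd, a factor of the acute phase response, rose by 1.44 ± 0.24 (adjusted p = 0.00157). Of 9 receptor chains, kinases and STATs of the IL6 pathway 4 rose and 2 fell (1 and 3 with median centring). Il6st, the signalling chain gp130, read 9.51, 9.47, 9.501 and 9.93 with TGFb and IL6 and 8.24, 8.13 and 8.30 with IL2 (1.38 ± 0.13, adjusted p = 1.87e-05), and the kinase Jak2 fell by 1.73 ± 0.28 on the log2 scale (adjusted p = 0.0011).

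Of 21 Treg genes measured in these T-effector samples 10 rose and 3 fell (median 0.69; 5 and 8 with median centring). Foxp3 itself read 6.35, 7.20, 6.81 and 7.08 with TGFb and IL6, against 6.07, 6.23 and 6.19 with IL2 (0.71 ± 0.22, adjusted p = 0.043). The groups did not overlap, but the call was lost under 13 of 25 alternatives, among them each omission of 1 array except TGFb with IL6 array 1 and the omission of slide B, with differences of 0.20 to 1.49. Gpr83, a receptor of Treg cells for neuropeptides, rose by 2.11 ± 0.17 (adjusted p = 6.37e-06), Entpd1, the ectoenzyme CD39, by 1.38 ± 0.11 (adjusted p = 5.1e-06), and Ctla4, the inhibitory receptor, by 1.31 ± 0.13 (adjusted p = 4.08e-05), a call lost with median centring (0.64). Tnfrsf9, the costimulator 4-1BB, fell, with 9.69, 9.43, 9.07 and 9.06 in the joint condition and 11.06, 10.65 and 10.88 with IL2 (-1.63 ± 0.14, adjusted p = 8.54e-06), while its dim second probe did not pass.

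Of 17 Th1 genes 7 rose and 5 fell (1 and 6 with median centring). The factors Tbx21 (T-bet) and Stat4, which transmits IL12, fell: Tbx21 read 10.95, 10.68, 10.59 and 10.64 with TGFb and IL6 and 11.69, 11.34 and 11.64 with IL2 (-0.89 ± 0.12, adjusted p = 0.000255), a call lost in the separate-channel fit. Stat4 read 8.26, 8.22, 7.78 and 7.92 with TGFb and IL6 and 10.34, 10.38 and 10.37 with IL2, over 2 units apart on every pair of arrays (-2.36 ± 0.12, adjusted p = 1.77e-07). Ifng, the Th1 cytokine interferon gamma, was bright in both conditions, at 13.43, 13.28, 12.90 and 13.20 with TGFb and IL6 and 13.50, 13.36 and 13.46 with IL2, and did not pass the test (-0.26 ± 0.11, adjusted p = 0.133). The Th1 genes that rose included the receptors Il12rb2, Cxcr3, Il18r1 and Cxcr6 and the chemokines Ccl3 and Ccl4. Il18r1, a receptor chain for IL18, rose by 1.71 ± 0.23 (adjusted p = 0.000331), the chemokine Ccl4 by 1.63 ± 0.27 (adjusted p = 0.00149) and the receptor Cxcr3 by 1.27 ± 0.24 (adjusted p = 0.00368). Median centring ended the calls of Ccl4 (0.72) and Cxcr3 (0.59). The chemokine Ccl5 fell, at 7.75, 8.03, 8.01 and 8.03 with TGFb and IL6, against 9.93, 10.04 and 10.04 with IL2 (-2.01 ± 0.15, adjusted p = 2.47e-06).

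Of 11 cytotoxic granule genes 0 rose and 9 fell (median -1.02; 0 and 11 with median centring). The granzymes Gzmc and Gzma, proteases of the granules, fell by 1.31 ± 0.23 and 1.31 ± 0.21 on the log2 scale (adjusted p = 0.00207 and 0.0013), both calls lost in the separate-channel fit. Perforin (Prf1), which lets them into the target cell, read 8.25, 8.197, 7.79 and 7.89 with TGFb and IL6 and 9.16, 8.99 and 9.31 with IL2, with the groups apart (-1.16 ± 0.11, adjusted p = 3.09e-05). Gzmb fell less, by 0.68 ± 0.12 (adjusted p = 0.0017). Granzyme genes are near copies of one another, and how far the probes tell them apart was not tested. In samples of mixed RNA, fewer cells of a type and less RNA per cell cannot be told apart.

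Of 11 Th2 and IL9 genes 3 rose and 3 fell (2 and 4 with median centring). Gata3, the factor that sets the Th2 fate, read 7.22, 7.89, 7.68 and 7.87 with TGFb and IL6 and 10.52, 10.38 and 10.72 with IL2 (-2.86 ± 0.23, adjusted p = 5.31e-06). With TGFb alone it read 8.15, 9.10 and 8.76, and the joint condition was lower than that (-1.01, adjusted p = 0.0168) and lower than with IL6 alone (-3.04, adjusted p = 4.65e-06). Ccr4, a chemokine receptor of Th2 and Treg cells, fell by 1.70 ± 0.13 (adjusted p = 3.62e-06). Il9 rose by 1.22 ± 0.14 (adjusted p = 0.000101, a call lost with median centring (0.56)) but was brighter with TGFb alone, so that joint minus TGFb was -0.83 (adjusted p = 0.00325). Of 12 follicular helper genes 2 rose, Il21 and the costimulator Icos (0.95 ± 0.12, adjusted p = 0.000189, a call lost with median centring (0.015)), and 3 fell (1 and 6 with median centring), with Cd200 at -1.97 ± 0.11 and the inhibitory receptor Btla at -1.45 ± 0.14 (adjusted p = 2.31e-07 and 2.35e-05). Bcl6, the follicular helper factor, differed by -0.42 ± 0.36 (adjusted p = 0.474).

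**Figure D3:**
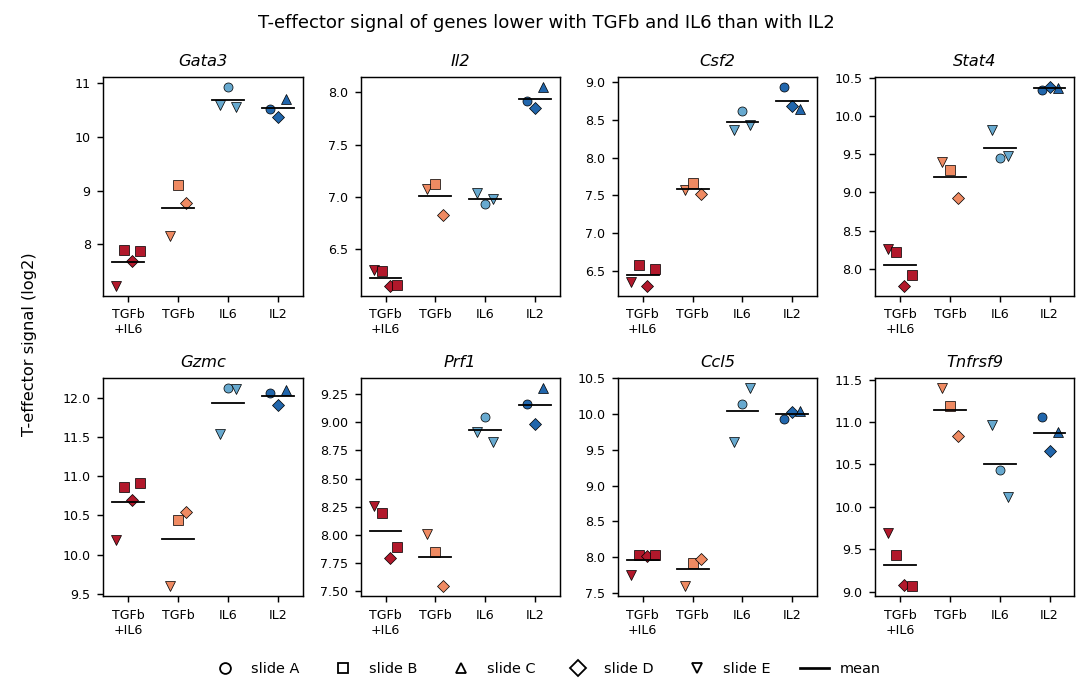
T-effector signal (log2, y axis) by condition for 8 genes that fell with TGFb and IL6, 1 point per array with the marker giving the slide and a bar at the mean. Gata3 lies at 7.22 to 7.89 with both cytokines and at 10.38 to 10.72 with IL2, and Ccl5 is also low with TGFb alone.

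Of 12 genes of naive and recirculating T cells 7 rose and 2 fell (median 0.997; with median centring 5 and 5, median 0.099, 0.35 relative to all genes). S1pr1, the receptor that lets T cells leave lymph nodes, read 11.20, 11.49, 10.90 and 11.49 with TGFb and IL6 and 7.39, 7.20 and 7.43 with IL2 (3.88 ± 0.16, adjusted p = 3.47e-08). Klf2, the factor that switches S1pr1 on, read 12.32, 12.73, 12.73 and 12.50 with TGFb and IL6 and 9.55, 9.41 and 9.5 with IL2 (3.12 ± 0.22, adjusted p = 1.61e-06), while its second probe, nearly as bright over all samples, did not pass. The joint condition exceeded TGFb alone and IL6 alone for S1pr1 (2.65 and 3.25, adjusted p = 2.11e-06 and 2.21e-07) and for Klf2 (2.32 and 2.55, adjusted p = 4.45e-05 and 1.28e-05). Il7r, the receptor for the survival cytokine IL7, Tcf7, the factor of naive and memory cells, and Foxo1, which keeps the naive programme on, rose by 2.05 ± 0.18, 1.86 ± 0.12 and 1.44 ± 0.15 (adjusted p = 1.08e-05, 1.11e-06 and 4.95e-05). Dapl1, a gene of naive T cells, fell, at 6.62, 6.50, 6.42 and 6.45 with TGFb and IL6 against 8.74, 8.63 and 8.76 with IL2 (-2.24 ± 0.091, adjusted p = 2.83e-08).

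Of 12 IL2 and STAT5 genes 5 rose and 2 fell (1 and 4 with median centring). IL2 was present on both sides. Socs2, a feedback inhibitor that STAT5 induces, read 12.996, 13.74, 13.11 and 13.40 with TGFb and IL6 and 9.96, 9.70 and 9.93 with IL2 (3.42 ± 0.25, adjusted p = 2.33e-06). It read 11.54, 12.54 and 12.15 with TGFb alone. Il2 itself read 6.30, 6.29, 6.15 and 6.16 with TGFb and IL6, well above background on 1 array of 4, and 7.92, 7.85 and 8.05 with IL2 (-1.73 ± 0.092, adjusted p = 2.19e-07). The survival gene Bcl2 rose by 1.28 ± 0.14 and the cytokine Lta by 1.23 ± 0.18 (adjusted p = 5.83e-05 and 0.000522), both calls lost with median centring (0.40 and 0.41).

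Of 9 checkpoint receptors and ligands 2 rose and 4 fell (0 and 7 with median centring), with Pdcd1lg2, a ligand of PD-1, at -1.47 ± 0.14 (adjusted p = 2.21e-05). In the TNF family the receptor Tnfrsf25 (DR3) rose, at 10.62, 11.93, 11.69 and 12.11 with TGFb and IL6 and 9.73, 9.39 and 9.79 with IL2 (1.99 ± 0.38, adjusted p = 0.00379). Its array 1 was the lowest of the joint condition by over 1 unit. Tnfrsf1b (TNFR2) rose by 0.77 ± 0.17 (adjusted p = 0.00822), a call lost with median centring (0.096), and its second probe did not pass. Of 9 receptors 3 rose and 2 fell (1 and 5 with median centring). Of 11 TNF family ligands 3 rose and 5 fell (0 and 6 with median centring). Tnfsf8 (CD30 ligand) read 9.64, 10.25, 9.96 and 10.48 with TGFb and IL6 and 12.29, 11.97 and 12.15 with IL2 (-2.06 ± 0.21, adjusted p = 4.46e-05), and Tnfsf4 (OX40 ligand) fell by 1.93 ± 0.13 on the log2 scale (adjusted p = 1.1e-06). Of 9 IL1 and IL18 receptor genes 3 rose and 1 fell (3 and 3 with median centring). Il1rn, the natural antagonist of IL1, was not well above background on any IL2 array and rose by 1.55 ± 0.11 (adjusted p = 2.97e-06). Its lowest difference under the alternatives was 1.15.

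Of 12 immediate early and Nr4a genes 1 rose and 3 fell (0 and 9 with median centring): Nr4a2, a nuclear receptor induced by antigen, read 8.47, 8.53, 8.29 and 8.68 with TGFb and IL6 and 10.48, 10.57 and 10.44 with IL2 (-2.02 ± 0.11, adjusted p = 2.4e-07). Egr3 and Egr2, zinc finger factors that curb activation, fell by 1.06 ± 0.12 and 0.96 ± 0.18 on the log2 scale (adjusted p = 8.39e-05 and 0.00306). Of 15 AP-1, Batf and IRF factors 2 rose and 2 fell (1 and 9 with median centring), where 9.18% of all genes rose and 9.83% fell. Jun read 8.36, 8.51, 8.30 and 8.37 with TGFb and IL6 and 6.77, 6.74 and 6.85 with IL2 (1.58 ± 0.11, adjusted p = 1.4e-06), whereas Atf3, a repressor induced by stress, read 7.95, 8.03, 7.97 and 8.03 with TGFb and IL6 and 10.49, 10.44 and 10.62 with IL2 (-2.51 ± 0.12, adjusted p = 8.92e-08). Batf3, a relative of Batf, fell by 1.29 ± 0.12 (adjusted p = 2.07e-05).

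Of 12 chemokine receptors 7 rose and 1 fell (median 0.52; 3 and 3 with median centring). Gpr15, which guides T cells to the large intestine, read 9.84, 8.77, 9.52 and 8.71 with TGFb and IL6 and 6.22, 6.09 and 6.23 with IL2, and the slide B arrays were the lowest of the joint condition (3.01 ± 0.24, adjusted p = 6.05e-06). It read 6.84, 6.50 and 6.59 with TGFb alone and 6.65, 6.37 and 6.38 with IL6 alone, and the joint condition exceeded both (2.59 and 2.76, adjusted p = 4.61e-05 and 1.74e-05). Of 10 chemokines 3 rose, Ccl20, Ccl4 and Ccl3, and 3 fell (1 and 4 with median centring). Of 17 integrins and adhesion molecules 5 rose and 0 fell (median 0.30; with median centring 2 and 3, median -0.078). Itgae, the CD103 chain that binds E-cadherin, read 8.61, 8.26, 8.32 and 8.09 with TGFb and IL6 and 6.61, 6.56 and 6.57 with IL2 (1.73 ± 0.16, adjusted p = 1.66e-05). With background parameters from all spots the difference was 0.93 and the call was lost. Its joint minus TGFb difference was 0.0011 ± 0.16. Its partner chain Itgb7 rose by 1.29 ± 0.20 and Selplg, the ligand of selectins, by 1.03 ± 0.21 (adjusted p = 0.000759 and 0.00539), both calls lost with median centring (0.39 and 0.14).

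Of 22 genes of glycolysis and hypoxia 2 rose and 14 fell (median -0.64; 0 and 18 with median centring). Slc16a3, the lactate exporter, read 9.27, 10.09, 10.06 and 9.99 with TGFb and IL6 and 11.86, 11.71 and 12.01 with IL2, with array 1 lowest (-1.95 ± 0.28, adjusted p = 0.00055). The enzymes Tpi1 and Eno1 fell by 1.41 ± 0.14 and 1.13 ± 0.18 on the log2 scale (adjusted p = 3.63e-05 and 0.00112). Egln3, an oxygen-sensing hydroxylase, rose by 1.42 ± 0.14 (adjusted p = 3e-05), a call lost with median centring (0.60). Of 21 genes of cholesterol synthesis 1 rose and 11 fell (median -0.51; 0 and 20 with median centring), among them Pmvk (-1.33 ± 0.17), Hmgcs1 (-1.104 ± 0.23) and Cyp51 (-0.91 ± 0.13), with adjusted p-values of 0.000258, 0.00597 and 0.000646. Of 18 genes of amino acid transport and Atf4 2 rose and 2 fell (1 and 9 with median centring), where 9.18% of all genes rose and 9.83% fell. The stress factor Atf4 was at -0.81 ± 0.10 and its target Trib3 at 1.13 ± 0.14 (adjusted p = 0.000251 and 0.000182). The stress factor Ddit3 rose by 0.79 ± 0.24 (adjusted p = 0.0365), a call lost without any 1 of the IL2 arrays or without TGFb with IL6 array 1 or 3. It was also lost with median centring (0.16) and with background parameters from all spots (0.68).

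Of 29 cell cycle genes 2 rose and 5 fell, and 22 did not pass (median -0.23), where 9.18% of all genes rose and 9.83% fell. The inhibitors went opposite ways: Cdkn1b (p27) rose by 1.095 ± 0.22 and Cdkn1a (p21) fell by 1.39 ± 0.13 on the log2 scale (adjusted p = 0.00519 and 2.04e-05). The Cdkn1b call was lost with median centring (0.47). The 2 dimmer probes of Cdkn1b did not pass, and 1 of them had the opposite sign. Cdk1, the kinase of mitosis, fell by 0.83 ± 0.16 (adjusted p = 0.00381), a call lost in the separate-channel fit. With median centring 0 of these genes were higher and 24 lower.

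**Figure D4:**
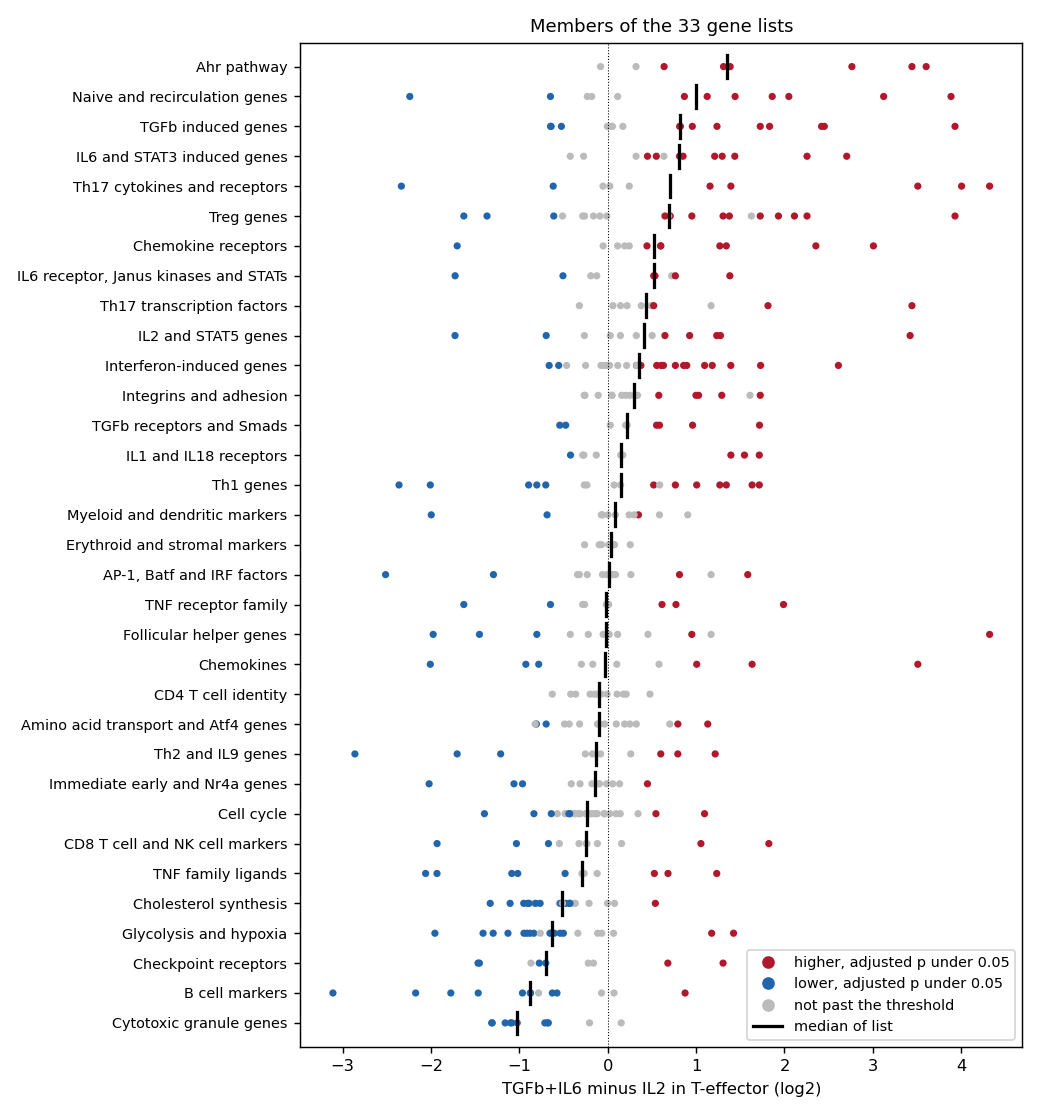
Difference of TGFb with IL6 minus IL2 in T-effector samples (log2, x axis) for the measured members of 33 gene lists, 1 point per gene, with a bar at each list's median and colour for genes past the threshold. Ahr pathway genes have the highest median (1.35) and cytotoxic granule genes the lowest (-1.02).

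Of 24 interferon-induced genes 13 rose and 2 fell (median 0.35; with median centring 6 and 2, median -0.078, 0.18 relative to all genes). Rtp4, a transporter of receptors, read 10.42, 10.25, 10.37 and 10.74 with TGFb and IL6 and 7.71, 7.77 and 8.09 with IL2 (2.61 ± 0.13, adjusted p = 1.7e-07). Ifit3 and Ifit1, antiviral proteins that bind RNA, rose by 1.73 ± 0.14 and 1.39 ± 0.14 (adjusted p = 5.1e-06 and 4.08e-05). Their arrays did not overlap between the conditions.

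Each array also carried a Treg sample, so the within-array ratio tests whether the difference from IL2 was the same in both cell types. It was not for 2209 genes (11.1% of those tested), 1438 with a more positive difference in T-effector (7.22%) and 771 with a more negative one (3.87%). This count is unstable: it was 369 without slide B, 1065 and 775 without TGFb with IL6 array 1 or 3, and 1374 and 728 without IL2 array 1 or 2. The Y-linked genes Ddx3y and Kdm5d were detected over background in all 4 Treg samples with TGFb and IL6 and in 3 and 2 of the 3 Treg samples with IL2, but in 0 of 7 T-effector samples. Cell type and the source of the cells cannot be told apart in this comparison. The T-effector minus Treg difference was 0.49 for Il17f, 0.98 for Il21 and -0.16 for Ahr (adjusted p = 0.0602, 0.141 and 0.532), none past the threshold, which does not show that the cell types responded equally.

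Rtp4 read 8.98, 9.28, 8.77 and 9.07 in Treg with TGFb and IL6 and 11.03, 8.61 and 8.45 in Treg with IL2, a difference of -0.49 in Treg beside 2.61 ± 0.13 in T-effector (3.10, adjusted p = 0.00706). The Treg sample of IL2 array 1 was also the highest of its condition for Ifit1 (8.46, 6.40 and 6.55) and Ifit3 (9.83, 7.12 and 7.55). The Treg differences of these interferon-induced genes thus lean on 1 Treg sample. For Rtp4 the remaining IL2 values in Treg, 8.61 and 8.45, lay below all those with TGFb and IL6, so the negative sign in Treg rests on that sample. How far the unequal differences of these genes depend on it was not tested. Klf2 differed by 0.75 in Treg (2.37, adjusted p = 0.00995), where it read 11.91, 10.26 and 10.78 with IL2, again highest on array 1. Prf1 differed by 1.05 in Treg (-2.21, adjusted p = 0.000731), so perforin was lower with TGFb and IL6 in T-effector and higher in Treg by these values. The T cell cytokine Il3 differed by -0.38 ± 0.095 in T-effector and 1.83 in Treg (-2.21, adjusted p = 1.89e-05). Xcl1, the chemokine lymphotactin, differed by 0.10 ± 0.17 and 2.15 (-2.05, adjusted p = 0.0013). Of the markers of CD8 T cells and NK cells, Cd8a, Klrd1 and Klrc1 also differed in Treg, by 2.196, 3.087 and 1.872. Crtam went the other way (-1.723), and the median in Treg over the 11 such markers was 0.159. Whether CD8 T cells or NK cells contributed to the Treg values of Prf1 and Xcl1 was not tested. Il1r1 rose less in T-effector than in Treg (-0.88, adjusted p = 0.0115), as did Il6st (-1.11, adjusted p = 0.00044). Ccl20 rose more (1.89, adjusted p = 0.0496), as did Rgcc (1.66, adjusted p = 0.00113). In Treg with IL2 Ccl20 read 9.14, 7.05 and 7.91, also highest on array 1. The 5 most positive differences were those of 3 probes listed as NAP113912-1, NAP115147-1 and LOC671950, which carry no gene name here, the potassium channel Kcna7 and Acsf2, an acyl-CoA synthetase, each with a positive difference in T-effector and a negative one in Treg. Kcna7 read 12.02, 10.52, 11.90 and 11.17 with TGFb and IL6 in T-effector, with both slide B arrays lowest, and 8.72, 9.42 and 8.86 with IL2.

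**Figure D5:**
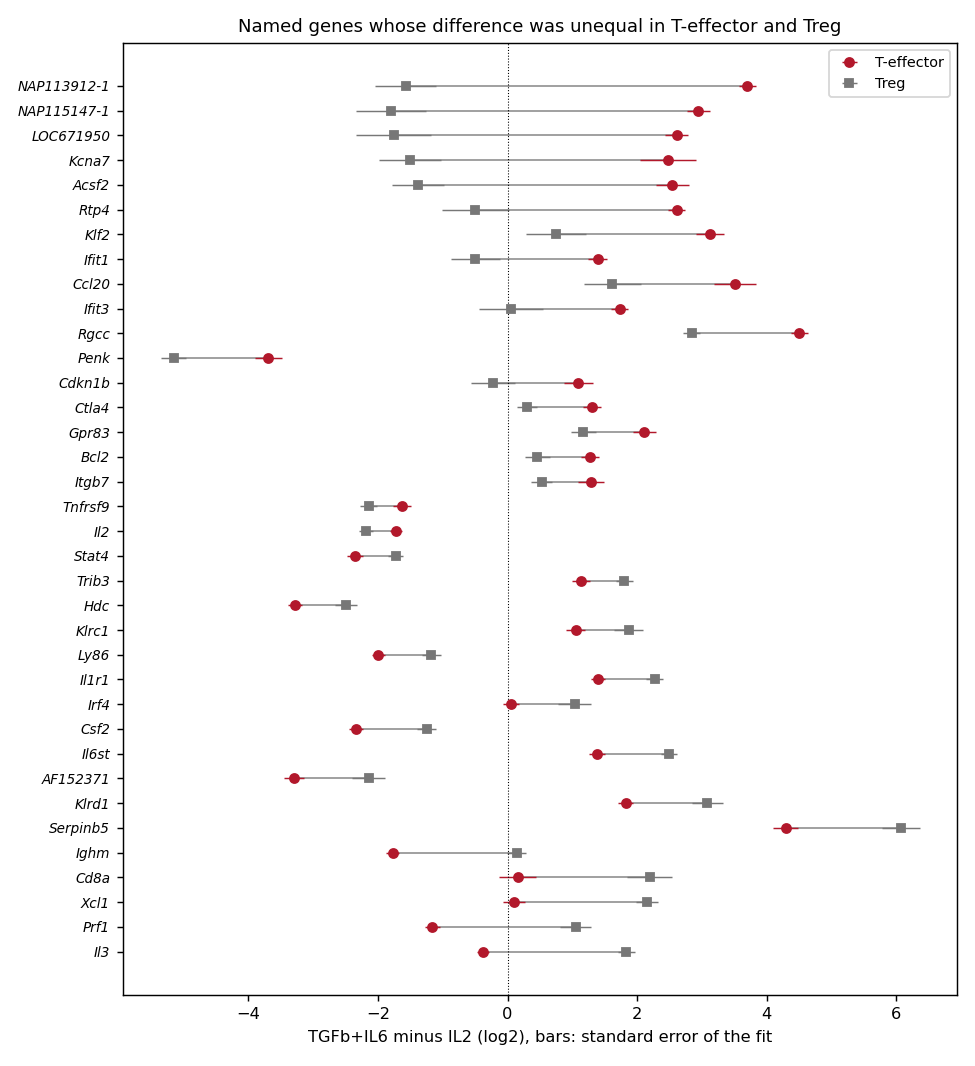
Difference of TGFb with IL6 minus IL2 (log2, x axis) in T-effector (circles) and in Treg (squares), with standard errors, for the 36 named genes whose differences were unequal by the test on within-array ratios. Rtp4 is at 2.61 in T-effector and -0.49 in Treg, and Prf1 at -1.16 and 1.05.

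Markers of other cells were checked, since a T cell culture can hold them. Of 13 B cell markers 1 rose and 9 fell (median -0.87; 1 and 9 with median centring), and their summed signal was 10.90 to 11.64 with TGFb and IL6 and 12.64 to 12.75 with IL2, in log2 units. With TGFb and IL6 4 of the 13 were not well above background on any array, against 0 with IL2. Cd79b, a chain of the B cell receptor, read 6.62, 6.68, 6.37 and 6.53 with TGFb and IL6 and 9.72, 9.51 and 9.69 with IL2 (-3.11 ± 0.091, adjusted p = 4.11e-09). Ighm, the IgM heavy chain, Cd74, the invariant chain of MHC class II, and H2-Aa, a class II chain, fell, with differences of -1.77, -2.17 and -1.46 (adjusted p = 2.19e-07, 8.24e-07 and 1.61e-06). Of 11 markers of CD8 T cells and NK cells 2 rose and 3 fell (2 and 4 with median centring), with a summed signal of 12.50 to 12.71 with TGFb and IL6 and 13.05 to 13.34 with IL2. Crtam, an adhesion molecule of cytotoxic cells, fell by 1.93 ± 0.13 (adjusted p = 1.22e-06), while the NK receptor chains Klrd1 and Klrc1 rose by 1.82 ± 0.12 and 1.05 ± 0.15 (adjusted p = 8.24e-07 and 0.000452). Of the CD8 chains Cd8a differed by 0.16 ± 0.28 (adjusted p = 0.757) and Cd8b1 fell by 0.67 ± 0.12 (adjusted p = 0.00239). The Cd8b1 call was lost in the separate-channel fit, and its dimmer probe did not pass. Nkg7, a granule protein of cytotoxic and NK cells, read 10.90, 10.60, 10.92 and 10.87 with TGFb and IL6 and 11.72, 11.82 and 12.08 with IL2, with the groups apart (-1.03 ± 0.13, adjusted p = 0.000246). The part of such cells in the cytotoxic genes that fell was not tested, nor was that of B cells in the genes they share with T cells.

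Of 11 myeloid and dendritic markers 1 rose, Cd68 (0.35 ± 0.094, adjusted p = 0.0239, a call lost under 11 of 25 alternatives), and 2 fell (0 and 2 with median centring), Ly86, which B cells also carry (-1.996 ± 0.099, adjusted p = 1.22e-07), and Tyrobp, an adaptor of NK and myeloid receptors (-0.69 ± 0.11, adjusted p = 0.00126). Their summed signal was 10.24 to 10.74 with TGFb and IL6 and 10.47 to 10.50 with IL2. Of 8 erythroid and stromal markers 0 rose and 0 fell (0 and 1 with median centring), with sums of 9.65 to 10.07 with TGFb and IL6 and 9.75 to 9.95 with IL2. The summed signal of the 12 genes of CD4 T cell identity was 15.55 to 15.90 with TGFb and IL6 and 15.98 to 16.06 with IL2.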

How the data were processed

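Each deposited scanner file holds the intensities of 1 array, the mean signal and local median background of both dyes, made with Agilent Feature Extraction 9.5.1.1 per the submitters' processing notes. The genome build is not given in the sources used here. The dye of each T-effector sample came from the labels, and other deposited columns used, flags for outliers, saturation and background, were those of the same program per the file headers. In R 4.3.3 with limma 3.58.1, background was corrected by normexp (offset 50, parameters fitted without spots flagged for their background), each array's log ratios were adjusted by loess and the average intensities by quantiles across arrays, and outlier spots were left out. Probes were kept if at least 3 of 26 channels read them well above background and at most 3 arrays missed them (28923), and the brightest probe of each gene was tested (19906 genes, 135 with a missing value; 4367 keep the array's own name). Names came from a RefSeq table.

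The log2 signals of the T-effector dye were fitted over 13 arrays with condition and dye as terms (8 residual degrees of freedom), limma's moderated test and Benjamini-Hochberg adjustment, threshold 0.05. The T-effector minus Treg test used the within-array log ratio in the same model. The genes named are a set of anchor genes and the members of the Th17 and Ahr lists, up to 3 past the threshold from each other list, the 8 highest and lowest genes whose groups do not overlap and the 5 highest and lowest of the Treg comparison. These members and lists were chosen with earlier results of these data known, and 14 further list members (Il7r, Tcf7, Foxo1, Gzmb, Eno1, Skil, Entpd1, Icos, Cxcr3, Bcl6, Cyp51, H2-Aa, Cd8b1 and Nkg7) were chosen after their values were seen. Some genes that this rule names are not reported here. The fits were also run on simulated data whose noise was drawn independently for each array. That simulation cannot show how signals shared by arrays of 1 slide affect the calls, and its outcome is not given here. The number of arrays limits the precision. Alternatives covered background correction, scaling, filters, probes, dye, slide and single arrays, and the omission of slides B and E was added after the data were seen. Same-numbered arrays of the conditions correlated negatively in their deviations (-0.375, -0.545, -0.654) and were not taken as pairs.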

Additional observations from a re-analysis of the deposited data

Results flagged for a closer look

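In the 4 T-effector samples with TGFb and IL6, 1 array stood apart from the other 3 for 7 of 119 named genes by Dixon's gap test, which flags about 1 in 20 groups by chance. Il6st read 9.93 on array 4 and 9.47 to 9.51 on the other 3. Ccl5 read 7.75 on array 1 and 8.01 to 8.03 on the other 3. Cdkn1b read 8.39 on array 1 and 9.14 to 9.25 on the other 3. Slc16a3 read 9.27 on array 1 and 9.99 to 10.09 on the other 3. Ighm read 9.65 on array 2 and 9.92 to 9.96 on the other 3. Tyrobp read 6.43 on array 2 and 6.36 to 6.37 on the other 3. Crtam read 8.90 on array 1 and 8.58 to 8.61 on the other 3. Array 1 was the one apart for Ccl5, Cdkn1b, Slc16a3 and Crtam.

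The difference of TGFb with IL6 minus IL2 was unequal in T-effector and Treg for 36 named genes, by limma's test of the within-array ratio at an adjusted p under 0.05. Over all genes this test gave 2209 calls, and 369 without slide B. The 36 were not followed singly under the alternatives, and the 5 highest and 5 lowest genes of this same test were named for their place in it. The values below are the T-effector minus the Treg difference on the log2 scale. More positive in T-effector were those of NAP113912-1 5.27, NAP115147-1 4.74, LOC671950 4.37, Kcna7 3.98, Acsf2 3.92, Rtp4 3.10, Klf2 2.37, Ifit1 1.89, Ccl20 1.89 and Ifit3 1.68. The next were those of Rgcc 1.66, Penk 1.46, Cdkn1b 1.32, Ctla4 1.002, Gpr83 0.94, Bcl2 0.82, Itgb7 0.77, Tnfrsf9 0.52 and Il2 0.46. More negative in T-effector were those of Il3 -2.21, Prf1 -2.21, Xcl1 -2.05, Cd8a -2.04, Ighm -1.92, Serpinb5 -1.78, Klrd1 -1.26, AF152371 -1.15 and Il6st -1.11. The others were those of Csf2 -1.08, Irf4 -0.98, Il1r1 -0.88, Ly86 -0.82, Klrc1 -0.82, Hdc -0.79, Trib3 -0.67 and Stat4 -0.63.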

How the results depend on the processing

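The counts of genes past the threshold were 3785 (TGFb with IL6 over IL2), 2209 (T-effector minus Treg), 1697 (over TGFb) and 2523 (over IL6). With Agilent's processed signals they were 5345 for T-effector minus Treg, 3247 for TGFb with IL6 over TGFb and 4103 for TGFb with IL6 over IL6. With background parameters from all spots they were 465 for T-effector minus Treg. With median centring they were 6989 for TGFb with IL6 over IL2, 7114 for T-effector minus Treg, 502 for TGFb with IL6 over TGFb and 4670 for TGFb with IL6 over IL6. The median of all genes was then -0.25, -0.32, -0.0021 and -0.24 in the same order of comparisons. With the spatial trend removed they were 3638 for T-effector minus Treg. With slide as a fixed block they were 3821 for TGFb with IL6 over TGFb and 4846 for TGFb with IL6 over IL6. With slide as a random block they were 6016 for TGFb with IL6 over IL2, 4289 for TGFb with IL6 over TGFb and 5340 for TGFb with IL6 over IL6. With the arrays of 1 slide averaged they were 1376 for TGFb with IL6 over IL6. With the array number as a replicate block, though the numbers do not pair the arrays, they were 8301 for TGFb with IL6 over IL2, 1232 for T-effector minus Treg, 3009 for TGFb with IL6 over TGFb and 5283 for TGFb with IL6 over IL6. Without slide B they were 369 for T-effector minus Treg and 1097 for TGFb with IL6 over TGFb. Without slide E they were 905 for TGFb with IL6 over IL6. With 1 array left out at a time they ranged from 2247 to 3821, 728 to 1880, 948 to 1625 and 1280 to 2415. The other counts were within 1.5 times of these. What causes the shifts was not tested.

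Among 134 genes followed, the difference changed sign under some alternative for 11, of which Stat3 had passed the threshold. With Agilent's processed signals the difference was 0.37 for Il23r. Without background subtraction the difference was 0.024 for Il23r. With background parameters from all spots the difference was -0.015 for Il17re. With quantile normalization the difference was -0.073 for Il17re. With median centring the differences were 0.029 for Il23r, -0.20 for Ccr6, -0.11 for Il17re, -0.89 for Irf4, -0.34 for Stat3, -0.71 for Hif1a, -0.16 for Runx1, -0.44 for Nfkbiz, -0.48 for Cd8a and -0.67 for Xcl1. With the spatial trend removed the difference was 0.0026 for Il23r. With slide as a fixed block the differences were -0.012 for Irf4 and 0.024 for Bcl6. With the array number as a replicate block the differences were -0.090 for Il17re, -0.10 for Hif1a, -0.012 for Nfkbiz and -0.27 for Cd8a. Without slide B the differences were -0.0075 for Il17re, -0.0088 for Hif1a and -0.11 for Cd8a. With 1 array left out the difference ranged, by gene, over Il17re from -0.15 to 0.13, Irf4 from -0.046 to 0.13 and Il23r from -0.15 to 0.033. Median centring took 19 of these genes out of the calls, against at most 7 under any other alternative. Without slide B the genes higher and lower numbered 6 and 2 (Th17 cytokine), 6 and 0 (Ahr), 0 and 9 (cytotoxic), 2 and 14 (glycolysis), 0 and 15 (cholesterol), 12 and 2 (interferon) and 1 and 9 (B cell). Without slide E the genes higher and lower numbered 5 and 1 (Th17 cytokine), 6 and 0 (Ahr), 0 and 9 (cytotoxic), 2 and 15 (glycolysis), 1 and 11 (cholesterol), 11 and 2 (interferon) and 1 and 9 (B cell). Over all genes 3031 were higher and 2490 lower without slide B, and 1804 and 2082 without slide E. The main fit gave 1828 and 1957, so list counts without slide B stand beside more calls over all genes. Slide and condition share only slide D, the labels do not say what the arrays of a condition share, and dim probes such as those of Il23r and Il17re limit what can be seen.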
